A study of Mus musculus with 9 samples.

Results

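The zinc-handling genes described here are 8 genes of the Slc30 family, Slc30a1, Slc30a2, Slc30a3, Slc30a4, Slc30a5, Slc30a7, Slc30a9 and Slc30a10, together with the metallothionein genes Mt1 and Mt2. The 10 genes were picked by symbol from the 54532 in the count table, and each symbol matched 1 gene. They were proposed with earlier results of these data known, among them the low Slc30a2 level in KO and Het libraries, so the Slc30a2 contrasts are given as a description, and its place in the counts of calls supports nothing. Srd5a2 encodes a steroid 5-alpha-reductase, which turns testosterone into dihydrotestosterone, the main androgen of the prostate. KO mice are Srd5a2-null (Srd5a2-/-), Het mice are Srd5a2+/- and WT mice carry the intact gene. The line was bred by crossing Het males to C57BL6 WT females, and KO males were taken in the third generation. Each genotype has 3 prostate libraries, numbered in accession order. The sources used here give neither the age of the mice, nor the lobes taken, nor how much of Srd5a2 was deleted. Nothing in the labels states that each library is a different mouse, and the p-values therefore cover only library-to-library spread, part of which may be technical.

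Zinc leaves the cytosol through Slc30 (ZnT) transporters, which move it out of the cell or into vesicles, Golgi, endosomes and mitochondria. It enters the cytosol through Slc39 (ZIP) transporters. Metallothioneins are small cysteine-rich proteins that bind zinc in the cytosol, and the zinc-sensing transcription factor MTF1 raises their transcription through metal response elements. The prostate holds and secretes unusually large amounts of zinc and also secretes citrate.

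Totals ran from 16233392 to 24017791 counts per library. Srd5a2 stood at 0.512 to 1.15 CPM (a gene's share of the library's reads, scaled by TMM) in KO libraries, 2.37 to 5.19 in Het libraries and 2.30 to 8.81 in WT libraries. The luminal keratin gene Krt8 was at 428 to 549 CPM in all 9 libraries, and Krt18 at 724 to 986. The libraries differed within a genotype in secretory genes. Sbp, a rodent ventral prostate secretory gene, was at 7.26 CPM in Het library 2 and at 0.994 and 16 CPM in WT libraries 1 and 3, against 34400 to 144000 CPM in the other 6. The log2 fold changes of Slc30a2 and Slc30a4 are also given without these libraries, and those of the other genes are not.

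Mt1, Mt2 and Slc30a1 are the textbook targets of MTF1, and the sequence upstream of each is shown so that its metal response element cores can be seen. Sequences are from RefSeq on GRCm38.p6, plus strand, 5′ to 3′, and end before the start of the gene in the deposited annotation. Capitals mark matches to the 7-base core TGCACNC or TGCGCNC on either strand, and overlapping matches were counted separately. The windows are chr8:94178839-94179081 for Mt1, chr8:94172368-94172617 for Mt2 and chr1:191906531-191906766 for Slc30a1.
Mt1: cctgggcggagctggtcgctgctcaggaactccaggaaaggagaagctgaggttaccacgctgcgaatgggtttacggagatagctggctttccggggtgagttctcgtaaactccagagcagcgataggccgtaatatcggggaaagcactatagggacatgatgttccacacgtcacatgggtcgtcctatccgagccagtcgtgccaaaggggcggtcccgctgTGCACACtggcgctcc
Mt2: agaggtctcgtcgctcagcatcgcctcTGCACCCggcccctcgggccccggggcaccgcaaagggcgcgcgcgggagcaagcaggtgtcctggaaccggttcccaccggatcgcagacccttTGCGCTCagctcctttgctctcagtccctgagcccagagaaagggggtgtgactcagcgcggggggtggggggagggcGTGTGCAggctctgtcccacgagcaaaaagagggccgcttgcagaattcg
Slc30a1: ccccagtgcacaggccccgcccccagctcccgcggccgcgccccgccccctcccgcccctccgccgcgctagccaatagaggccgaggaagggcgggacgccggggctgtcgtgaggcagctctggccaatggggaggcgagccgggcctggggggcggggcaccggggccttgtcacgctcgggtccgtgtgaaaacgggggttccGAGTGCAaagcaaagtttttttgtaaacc

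In the 250 bases before the RefSeq start, Mt2 had 3 such cores, Mt1 had 1 and Slc30a1 had 1. Of 32851 RefSeq windows of that length, 21.4% held at least 1 core and 1.26% held at least 3. Slc30a10 also had 3, of which 2 overlap, while Slc30a4 had 2 and Slc30a5 had 1. Slc30a7 and Slc30a9 had none in this window. Slc30a3 has 2 RefSeq starts, with 1 core before the outer and none before the inner. The RefSeq start of Slc30a2 lies 285 bases inside the gene as deposited, so its window is not read as a promoter. A match is a description of the letters and not evidence of a working site. Bases after the RefSeq start were not searched. For Mt1 that start is 94179089 and the coding sequence begins at 94179311. For Mt2 the start is 94172618 and the coding sequence begins at 94172848. The 1 core of Mt1 and the 3 of Mt2 may therefore not be full counts.

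The members spanned several orders of magnitude in level. Levels between genes are compared only per length, as the deposited FPKM (reads scaled by gene length and library depth). Mt1 averaged 1340 FPKM over the 9 libraries (range 566 to 1900) and ranked 28th of 54532 genes. Slc30a2, which loads zinc into secretory vesicles and whose human counterpart is needed for zinc in milk, was the highest Slc30 member with a mean of 25.1 FPKM (12.3 to 51.3). Slc30a5, a transporter of the early secretory pathway, followed at 12.1 FPKM (9.58 to 13.7), and was below Slc30a2 in 8 of 9 libraries. Slc30a7, a Golgi transporter, averaged 8.42 FPKM (6.09 to 10.6), below Slc30a5 in all 9 libraries. In total reads Slc30a2, Slc30a5 and Slc30a7 were close, at 16055, 15796 and 16659. Their order in FPKM therefore rests on the deposited gene lengths of 3564, 7294 and 11116 bases, which need not be those of the transcripts expressed.

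Slc30a4, Slc30a1 and Slc30a9 lay close together. Slc30a4, a vesicular transporter mutated in the lethal milk mouse, averaged 5.52 FPKM (1.90 to 8.40). Slc30a1, the exporter of the plasma membrane, averaged 4.22 FPKM (2.51 to 6.13), and Slc30a9, a mitochondrial zinc transporter, averaged 3.69 FPKM (3.22 to 4.22). Their ranges overlapped, and the order held in 7 of 9 libraries between Slc30a4 and Slc30a1 and in 6 of 9 between Slc30a1 and Slc30a9. Mt2 was listed at a mean of 1.91 FPKM (0.0781 to 3.41), a value that is not read as its level because most of its exon bases are shared with an antisense gene. Slc30a10, which exports manganese in humans and mice, averaged 0.281 FPKM (0 to 0.644). Slc30a3, the transporter of synaptic vesicles, was barely detected, with 38 reads over all 9 libraries (mean 0.0728 FPKM).

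**Figure D1:**
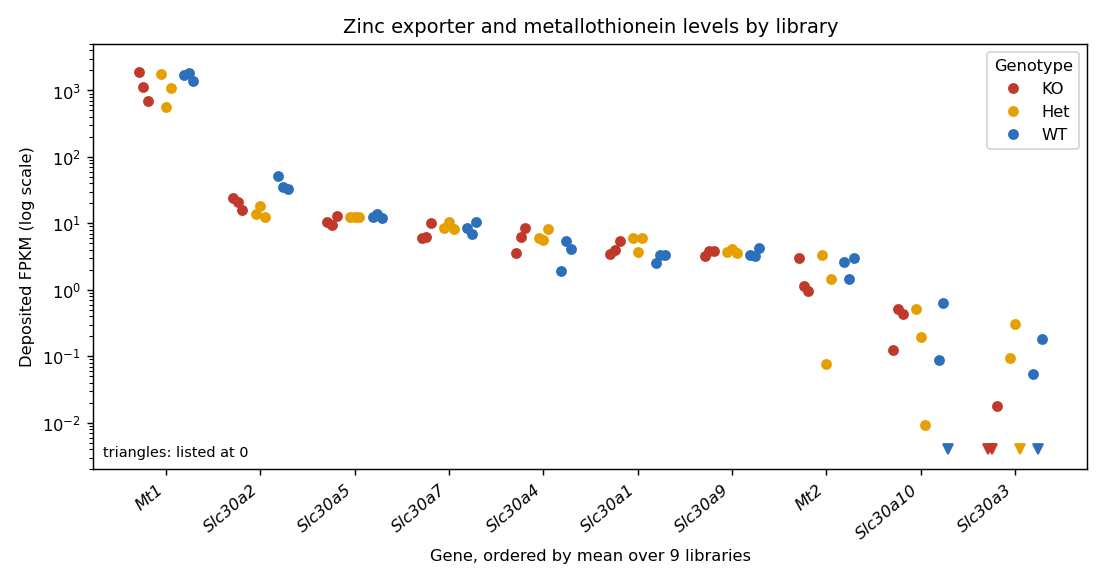
Deposited FPKM (log scale) of the 10 members in each of the 9 libraries, with KO, Het and WT libraries side by side and members ordered by their mean. Mt1 sits between 566 and 1900 FPKM, Slc30a2 leads the Slc30 genes, and Slc30a3 is at or near 0.

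Slc30a2 (chromosome 4, 134343181 to 134354484, plus strand) was lower in KO and Het libraries than in WT libraries, without passing the test in edgeR. Its levels were 89.2, 75.9 and 57.8 CPM in KO libraries 1 to 3, 49.8, 64.7 and 44.3 CPM in Het libraries 1 to 3, and 189, 130 and 120 CPM in WT libraries 1 to 3. All 6 KO and Het libraries lay below all 3 WT libraries, and the Het range overlapped the KO range at 57.8 to 64.7 CPM. The means were 74.3 ± 15.8 CPM in KO, 52.9 ± 10.6 CPM in Het and 146 ± 36.9 CPM in WT (SD, n = 3 each). The log2 fold change was -0.98 (SE 0.23, 95% interval -1.49 to -0.46) in KO against WT, a level 1.97-fold lower. In Het against WT it was -1.47 (SE 0.23, -1.99 to -0.94), a level 2.77-fold lower. Neither passed in edgeR over all genes (adjusted p = 0.38 in Het against WT), and the intervals are not adjusted for the number of genes. Both contrasts share the WT libraries. KO and Het differed by 0.49 (SE 0.23, -0.02 to 1), an interval that includes 0.

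**Figure D2:**
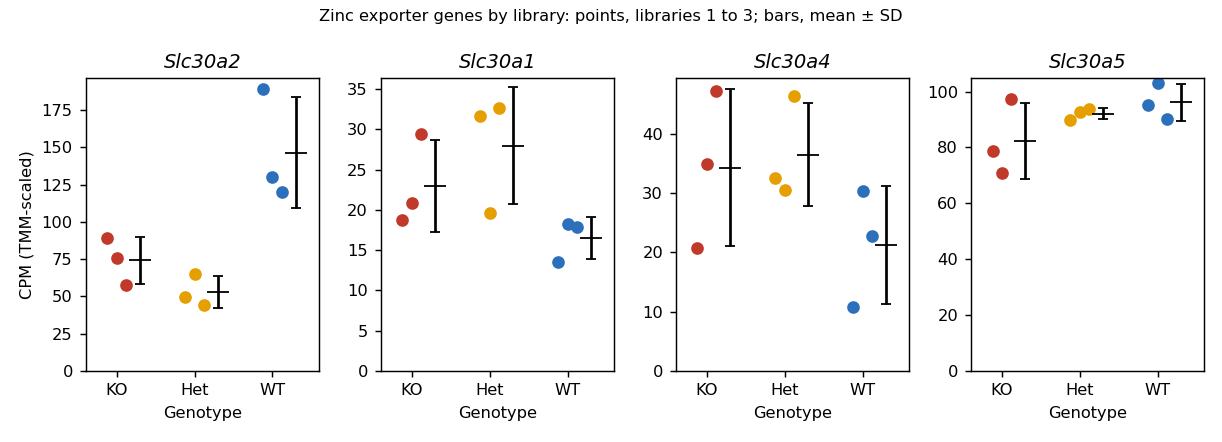
CPM of Slc30a2, Slc30a1, Slc30a4 and Slc30a5 in KO, Het and WT libraries, with each library as a point and the mean ± SD (n = 3) as a bar. Slc30a2 is lower in all 6 KO and Het libraries than in WT, Slc30a1 is higher in all 6, and Slc30a5 overlaps between genotypes.

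By genotype means Slc30a2 ran in the reverse order of Sbp, which averaged 41700 CPM in KO, 85800 CPM in Het and 18500 CPM in WT. Among Het libraries, the library low in Sbp (library 2) had the highest Slc30a2, at 64.7 CPM. Among WT libraries, those low in Sbp (1 and 3) had 189 and 120 CPM, the highest and lowest WT values, and the library rich in Sbp had 130 CPM. With Sbp as a covariate the log2 fold changes of Slc30a2 were -0.71 (SE 0.23) in KO and -1.31 (SE 0.21) in Het against WT. Without the libraries low in Sbp, 3 KO, 2 Het and 1 WT libraries were left, and the log2 fold changes were -0.81 (SE 0.26) in KO and -1.48 (SE 0.27) in Het against WT. Set against Krt8, Slc30a2 CPM gave ratios of 0.118 to 0.173 in KO libraries, 0.0866 to 0.151 in Het libraries and 0.267 to 0.426 in WT libraries. Against Krt18 the ratios were 0.0798 to 0.0954 in KO, 0.0496 to 0.0848 in Het and 0.138 to 0.211 in WT. In bulk tissue, fewer cells that express a gene and less RNA per cell cannot be told apart.

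**Figure D3:**
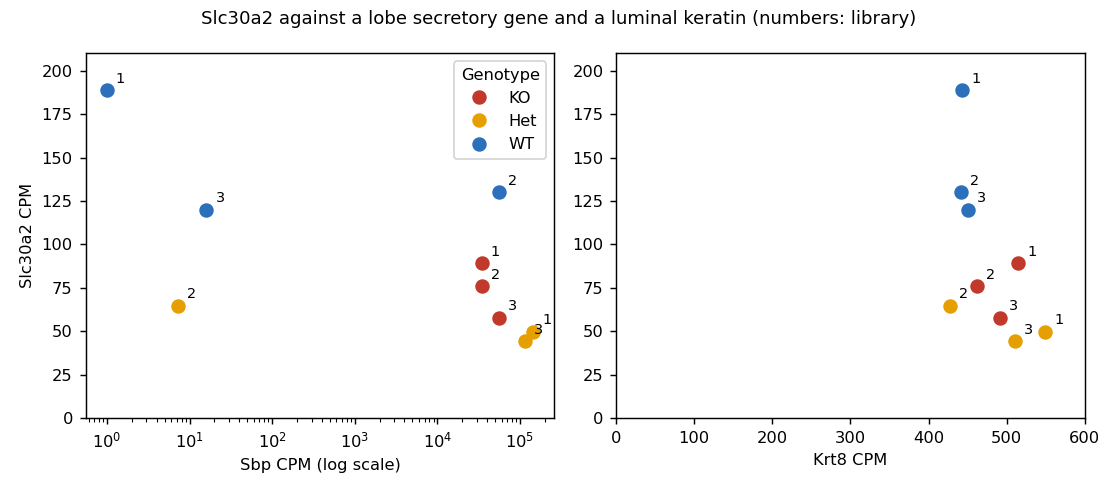
Slc30a2 CPM (vertical axis) against Sbp CPM (left, log scale) and Krt8 CPM (right) in the 9 libraries, coloured by genotype and numbered within it. The 3 WT libraries are the highest for Slc30a2 at both low and high Sbp, while Krt8 stays between 428 and 549 CPM.

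Marker genes of other cell types and tissues varied between libraries, and none passed the test in edgeR in any comparison. The 15 skeletal muscle markers summed to 803 to 6530 CPM in KO libraries, 145 to 682 in Het libraries and 350 to 1430 in WT libraries, with Tnnc2 at 0 in all. The 8 seminal vesicle markers summed to 96200 to 194000 CPM in KO, 6590 to 359000 in Het and 31100 to 221000 in WT. The 6 endothelial markers summed to 56.0 to 128 CPM in KO, 19.5 to 32.9 in Het and 47.5 to 86.8 in WT, and the 5 blood markers to 47.3 to 82.7 CPM in KO, 9.99 to 27.7 in Het and 49.2 to 82.2 in WT. The 6 macrophage markers summed to 65.9 to 102 CPM in KO, 36.4 to 55.4 in Het and 68.5 to 99.5 in WT. The 9 neuron and neuroendocrine markers summed to 24.1 to 147 CPM in KO, 5.3 to 150 in Het and 5.18 to 35.6 in WT, and the 8 tested were positive in both KO and Het against WT (medians 2.46 and 1.98). The 6 fibroblast markers summed to 856 to 1030 CPM in KO, 356 to 619 in Het and 450 to 933 in WT, and for the 4 basal epithelial markers the median log2 fold change was 0.45 in KO and -0.39 in Het against WT. The endothelial, macrophage and blood sums of the Het libraries lay below all WT libraries, while those of the KO libraries overlapped WT. Their part in the Slc30a2 level was not tested. Fits were run with a seminal vesicle or a skeletal muscle score, and the other marker lists were not fitted. With the skeletal muscle score the KO against WT value of Slc30a2 was -0.69, beside -0.98 without it.

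The transporter mix shifted with Slc30a2. Summed over the 10 Slc30 genes (the 8 members, Slc30a6 and Slc30a8), FPKM was 55.6 to 62.4 in KO libraries, 56.5 to 62.7 in Het libraries and 73.8 to 86.2 in WT libraries. Slc30a2 made up 25.4% to 43.6% of that sum in KO, 20.6% to 28.9% in Het and 45.0% to 59.5% in WT. The size of these shares depends on the deposited gene lengths. Without Slc30a2 the sums were 31.3 to 46.5 FPKM in KO, 42.5 to 47.2 in Het and 34.9 to 40.6 in WT, so that KO overlapped WT and Het lay above it. The sum over the 14 Slc39 importers was 105 to 112 FPKM in KO, 95.5 to 124 in Het and 101 to 110 in WT.

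Slc30a1 (chromosome 1, 191906767 to 191913247, plus strand) was higher in KO and Het libraries than in WT libraries, without passing the test. It was at 18.7, 20.8 and 29.4 CPM in KO libraries, 31.7, 19.6 and 32.6 CPM in Het libraries, and 13.5, 18.2 and 17.8 CPM in WT libraries. All 6 KO and Het libraries were above WT, but KO library 1 (18.7 CPM) only just exceeded WT library 2 (18.2 CPM). The log2 fold change was 0.48 (SE 0.26, 95% interval -0.11 to 1.06) in KO against WT and 0.76 (SE 0.26, 0.18 to 1.35) in Het against WT. Neither passed in edgeR over all genes (adjusted p = 1 and 0.457).

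Slc30a4 (chromosome 2, 122681233 to 122702663, minus strand) varied widely within genotypes. It was at 20.7, 35.0 and 47.2 CPM in KO libraries, 32.6, 30.5 and 46.5 CPM in Het libraries, and 10.7, 30.4 and 22.7 CPM in WT libraries. KO overlapped WT, and Het lay just above WT, with Het library 2 at 30.5 CPM and WT library 2 at 30.4 CPM. The log2 fold changes of 0.69 (SE 0.40) in KO and 0.78 (SE 0.40) in Het against WT did not pass in edgeR (adjusted p = 1 and 0.595). Both were lowest without the 3 libraries low in Sbp, at 0.17 in KO and 0.37 in Het.

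For the secretory-pathway and mitochondrial transporters the genotypes overlapped. Slc30a5 averaged 82.4 ± 13.7 CPM in KO, 92.1 ± 2.03 in Het and 96.0 ± 6.32 in WT (SD, n = 3 each). Slc30a7 averaged 85.5 ± 26.3 CPM in KO, 102 ± 13.9 in Het and 98.1 ± 18.8 in WT. Slc30a9 averaged 45.8 ± 4.06 CPM in KO, 47.6 ± 2.81 in Het and 45.7 ± 6.48 in WT. For Slc30a9 the 95% interval of the log2 fold change ran from -0.33 to 0.34 in KO against WT and from -0.27 to 0.40 in Het against WT. For Slc30a5 it ran from -0.54 to 0.10 in KO and from -0.38 to 0.26 in Het, and for Slc30a7 from -0.71 to 0.31 and from -0.45 to 0.56.

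Slc30a10 was low and varied widely between libraries, and Slc30a3 was barely detected. Slc30a10 had 14, 54 and 50 reads in KO libraries, 55, 25 and 1 in Het libraries, and 10, 87 and 0 in WT libraries. Its log2 fold changes of 0.55 (95% interval -2.81 to 3.91) in KO and -0.08 (-3.44 to 3.29) in Het against WT leave room for large changes of either sign. Slc30a3 did not pass the low-count filter and had 0, 0 and 1 reads in KO libraries, 5, 19 and 0 in Het libraries, and 3, 0 and 10 in WT libraries. A count of 0 allows up to 3 counts, which is 0.133 to 0.171 CPM depending on the library.

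Mt1 (chromosome 8, 94179082 to 94180327, plus strand) was among the most abundant transcripts and varied within genotypes. It was at 2440, 1440 and 878 CPM in KO libraries, 2210, 707 and 1390 CPM in Het libraries, and 2180, 2300 and 1780 CPM in WT libraries. The KO and Het libraries ran both above and below the lowest WT library. The log2 fold change was -0.39 (SE 0.44, 95% interval -1.39 to 0.60) in KO and -0.54 (SE 0.44, -1.54 to 0.46) in Het against WT, and neither passed in edgeR (adjusted p = 1 and 0.757). Without Het library 2, which was low in Sbp, the Het against WT value of Mt1 was -0.21. With the seminal vesicle score in the fit, Mt1 was 0.08 (SE 0.36) in KO and -1.27 (SE 0.42) in Het against WT, and 1.35 (SE 0.54) in KO against Het.

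Mt2 (chromosome 8, 94172664 to 94173568, plus strand), which lies beside Mt1 and encodes a near relative, was listed at 33, 12 and 11 reads in KO libraries, 37, 1 and 16 in Het libraries, and 31, 20 and 35 in WT libraries. Over all 9 libraries that is 196 reads, against 295856 for Mt1. Their coding sequences have 148 of 186 bases in common (79.6%), and the longest run shared by the transcripts Mt1-201 and Mt2-201 is 20 bases. The coding sequences are shown to compare them, from GENCODE vM21 on GRCm38, with the 38 differing bases in capitals. They lie within chr8:94179311-94180193 for Mt1 and chr8:94172848-94173427 for Mt2.
Mt1: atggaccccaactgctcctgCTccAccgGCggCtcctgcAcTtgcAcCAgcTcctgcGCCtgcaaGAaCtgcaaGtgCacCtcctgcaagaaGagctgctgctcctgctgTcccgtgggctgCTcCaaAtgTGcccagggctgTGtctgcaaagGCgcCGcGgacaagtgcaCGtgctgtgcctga
Mt2: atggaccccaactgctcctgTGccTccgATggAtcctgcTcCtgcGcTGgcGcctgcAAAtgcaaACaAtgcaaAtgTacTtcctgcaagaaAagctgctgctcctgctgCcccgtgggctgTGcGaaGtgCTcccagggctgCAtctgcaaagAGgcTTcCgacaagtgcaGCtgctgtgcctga

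The deposited Mt2 count is not read as the Mt2 level. An antisense gene on the minus strand, Gm45774 (chromosome 8, 94170748 to 94173412), covers 432 of the 588 exon bases of Mt2 (73.5%) and 355 of the 511 bases of Mt2-201. The 156 bases that it leaves free, from 94173413 to 94173568, are at the 3′ end. Gm45774 itself was listed at 97, 38 and 27 reads in KO libraries, 52, 38 and 13 in Het libraries, and 93, 110 and 58 in WT libraries. The sources used here do not say how reads in such shared bases were assigned, or whether strand was used. The part of the overlap in the Mt2 count was not tested. Of the 406 protein-coding genes with at least 70% of their exon bases shared with another gene, 66.7% had no read in any library. These overlaps are on either strand, so the share is not specific to antisense pairs. The share was 7.18% among the 6126 genes that share fewer and 26.3% among the 15386 that share none. Slc39a7, which shares 80.7%, had 1456 reads. Tnnc2, a skeletal muscle gene that shares 74% of its exon bases with Ube2c, had 0 reads in KO library 2, where Tnnt3 was at 520 CPM. Gm45774, Tnnc2 and Ube2c were singled out after their values were seen.

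**Figure D4:**
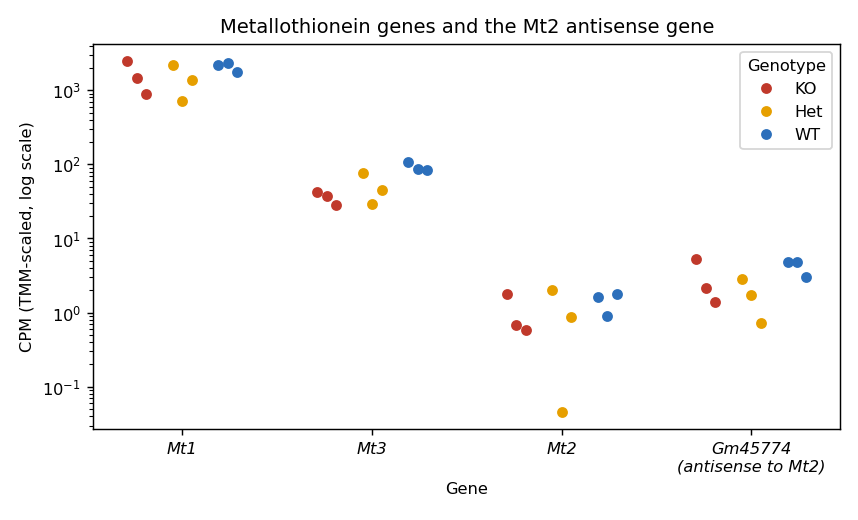
CPM (log scale) of Mt1, Mt3, Mt2 and Gm45774, the gene antisense to Mt2, in each KO, Het and WT library. Mt1 is at 707 to 2440 CPM, Mt3 is lower in all 6 KO and Het libraries than in WT, and Mt2 and Gm45774 do not exceed 5.33 CPM.

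Among the other members, exon bases shared with another gene came to 16% for Slc30a7, 9.13% for Slc30a10, 8.92% for Slc30a1 and 2.37% for Slc30a4. Slc30a2, Slc30a3, Slc30a5, Slc30a9 and Mt1 shared none. The Slc30a7 overlaps are with 2 processed pseudogenes, both with 0 reads in all libraries.

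Counted over the members, 9 of 10 passed the low-count filter, and no member was called in any comparison in edgeR's quasi-likelihood test (adjusted p under 0.05 over 16836 genes). The background was also 0%, with 0 genes called in KO against WT, in Het against WT and in KO against Het. At an unadjusted p under 0.05 were 1 member in KO against WT (Slc30a2, lower), 2 in Het against WT (Slc30a2 lower, Slc30a1 higher) and 0 in KO against Het, where the shares of all genes were 3.57%, 9.04% and 6.22%. DESeq2 called 0 members in KO against WT, 1 in Het against WT (Slc30a2, lower) and 0 in KO against Het, where its shares of all genes were 0.0893%, 1.02% and 0.935%. Limma voom called 0 members and 0% of all genes in each. The median log2 fold change over the 9 members was -0.20 in KO against WT and -0.06 in Het against WT, beside 0.01 and 0.00 over all genes tested. In KO against WT 4 members were positive and 5 negative, and the same counts held in Het against WT.

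Members were also counted by whether the genotypes overlapped. In KO against WT 1 member was lower in all 3 libraries (6.04% of all genes) and 1 was higher (8.14%). In Het against WT 1 was lower (8.59%) and 2 were higher, Slc30a1 and Slc30a4 (4.7%). With KO and Het together against WT, 1 member was lower in all 6 libraries, where 2.2% of all genes were, and 1 was higher, where 1.21% were. Since low Slc30a2 was known when the members were chosen, nothing is read from these counts about the members as a set.

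The other zinc genes are a list of 19, namely the exporters Slc30a6, Slc30a8 and Tmem163, the 14 Slc39 importers, Mt3 and Mtf1. Of these 16 passed the filter, and none passed the test in any comparison in edgeR. At an unadjusted p under 0.05, KO against WT had 1 higher and 1 lower, Het against WT had 1 higher and 2 lower, and KO against Het had 0 higher and 1 lower, beside 3.57%, 9.04% and 6.22% of all genes. DESeq2 called 1 in Het against WT (Slc39a6, higher), beside 1.02% of all genes, and limma voom called 0. Slc30a8, the transporter of insulin granules, and Slc39a12 had no read in any library, and Tmem163 had 17.

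Mt3, a metallothionein known mainly from brain, was lower in KO and Het libraries than in WT libraries, without passing the test. It was at 42.5, 37.9 and 28.2 CPM in KO libraries, 77.3, 29.3 and 44.9 CPM in Het libraries, and 106, 87.7 and 83.1 CPM in WT libraries. All 6 KO and Het libraries lay below WT. The log2 fold change was -1.35 (SE 0.32, 95% interval -2.06 to -0.64) in KO and -0.87 (SE 0.31, -1.57 to -0.17) in Het against WT, with edgeR adjusted p of 1 and 0.475. No exon base of Mt3 is shared with another gene.

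Slc39a6, a zinc importer of the plasma membrane known in human breast cancer cells as an oestrogen-regulated gene, was higher in KO and Het libraries than in WT libraries, without passing the test. It was at 24.7, 34.2 and 28.7 CPM in KO libraries, 38.9, 36.3 and 40 CPM in Het libraries, and 19, 24.5 and 11.6 CPM in WT libraries. All 6 KO and Het libraries were above WT, the closest being KO library 1 (24.7 CPM) and WT library 2 (24.5 CPM). WT libraries 1 and 3, at 19 and 11.6 CPM, are those low in Sbp. The log2 fold change was 0.67 (SE 0.26, 0.10 to 1.24) in KO and 1.06 (SE 0.26, 0.49 to 1.64) in Het against WT, with edgeR adjusted p of 1 and 0.401.

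Among the remaining zinc genes, Slc30a6 pairs with Slc30a5 in the early secretory pathway. It lies on chromosome 17 at 74395621 to 74424221, near Srd5a2 at 74016955 to 74047916. Slc30a6 was at 13.7 to 16.4 CPM in KO, 15.7 to 25 in Het and 18.7 to 19.5 in WT. All 3 KO libraries were below all 3 WT libraries, as for 6.04% of all genes. Whether the place of Slc30a6 near Srd5a2 bears on its level was not tested. Its KO against WT value was -0.38 (SE 0.22, edgeR adjusted p = 1), and KO against Het was -0.52 (SE 0.22, adjusted p = 0.754). Slc39a13, a Golgi-associated transporter, had -0.41 (SE 0.17) in Het against WT (adjusted p = 0.526). Slc39a4, the transporter of intestinal zinc uptake, had -0.75 (SE 0.37, adjusted p = 0.579). Slc39a9 in KO against WT had -0.21 (SE 0.15, adjusted p = 1). Slc39a1, the importer most often tied to zinc uptake by human prostate cells, averaged 74.4 ± 9.34 CPM in KO, 70.3 ± 10.2 in Het and 65.5 ± 3.09 in WT (SD, n = 3 each). Mtf1 averaged 19.4 ± 1.54 CPM in KO, 20 ± 3.28 in Het and 21.0 ± 4.26 in WT. The Slc39a7 count, like that of Mt2, is not read as a level, since 80.7% of its exon bases are shared with Gm20427.

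**Figure D5:**
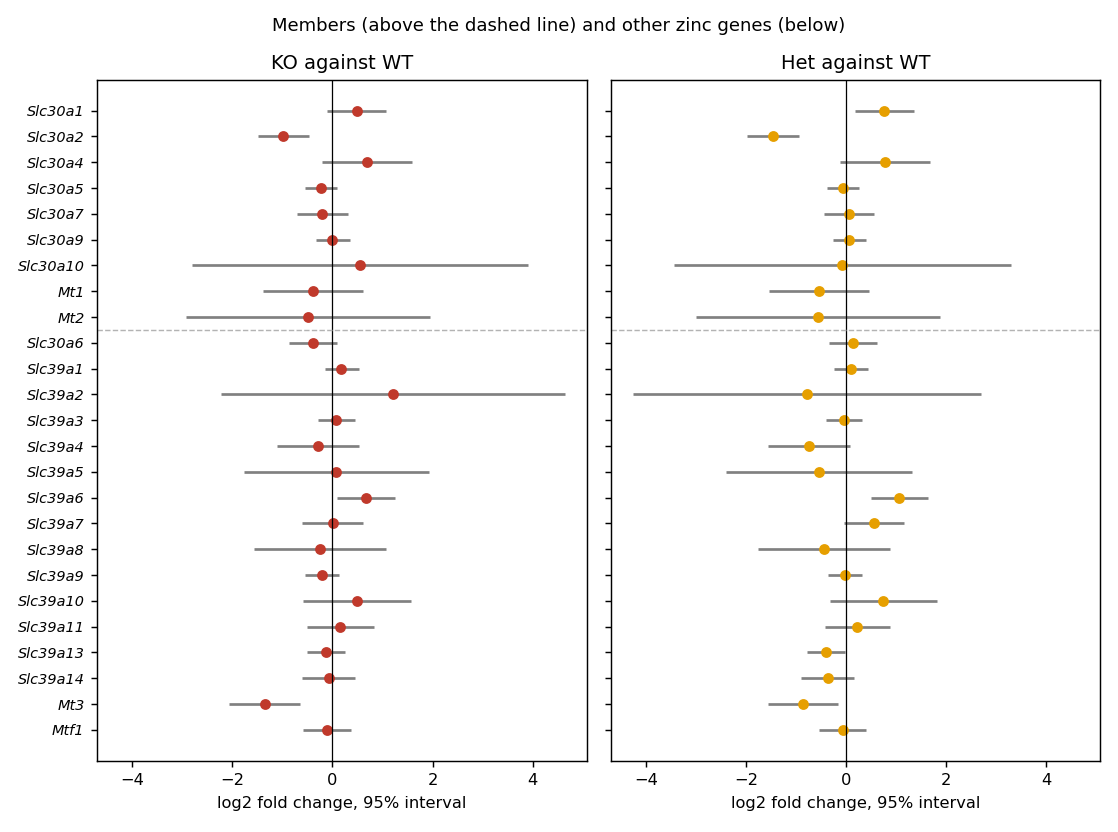
Log2 fold changes with 95% intervals in KO against WT (left) and Het against WT (right) for the 9 tested members, above the dashed line, and the 16 tested other zinc genes, below it. Slc30a2 and Mt3 lie below 0 and Slc39a6 above 0 in both, and Slc30a10, Mt2 and Slc39a2 have the widest intervals.

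Further lists bear on zinc and metallothionein. Cs, which encodes citrate synthase, had log2 fold changes of 0.06 (SE 0.18) in KO and 0.04 (SE 0.18) in Het against WT. Slc25a1, the mitochondrial citrate carrier, had -0.02 (SE 0.17) in KO and -0.04 (SE 0.17) in Het against WT. Neither passed in edgeR. Glucocorticoids also induce metallothionein, and of 9 glucocorticoid-responsive genes none passed in edgeR. Fkbp5, a co-chaperone of the receptor, was at 135, 211 and 228 CPM in KO libraries, 337, 238 and 302 CPM in Het libraries, and 80.2, 152 and 172 CPM in WT libraries. Its log2 fold change was 1.11 (SE 0.30) in Het against WT (edgeR adjusted p = 0.405) and 0.50 (SE 0.29) in KO against WT (adjusted p = 1). Per1, a clock gene, was lower in all 6 KO and Het libraries than in WT, with -0.41 (SE 0.17) in KO and -0.51 (SE 0.17) in Het (adjusted p = 1 and 0.442). Of 7 NRF2 target genes, which respond to oxidative stress, none passed, with Srxn1 at 0.78 (SE 0.31, adjusted p = 0.496) in Het and Nqo1 at 1.41 (SE 0.74, adjusted p = 1) in KO against WT.

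The genes whose log2 CPM most resembled a member across the 9 libraries were found among 11055 genes averaging at least 5 CPM. The libraries share genotype, tissue makeup and depth, so the coefficients are a description. For Slc30a2 they were Chn2, a Rac GTPase-activating protein (Pearson r = 0.975), Bex4 (0.972), Zfp697 (0.971), Cd24a, a surface glycoprotein of luminal epithelium (0.965), and D630045J12Rik (0.961). Chn2 was at 53.1, 39.4 and 25.9 CPM in KO libraries, 27.4, 37.1 and 26.1 CPM in Het libraries, and 92.4, 58.1 and 57.5 CPM in WT libraries. Cd24a was at 743 to 844 CPM in KO, 637 to 806 in Het and 941 to 1110 in WT, a narrower spread than that of Slc30a2.

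For Mt1 the nearest genes were Srp9, part of the signal recognition particle (0.983), Rpl22 (0.983) and Rpl4 (0.981), which encode ribosomal proteins, Rpl6l (0.977) and Rps12-ps3 (0.975). Rpl4 was at 1900, 1590 and 1350 CPM in KO libraries, 1820, 1230 and 1450 CPM in Het libraries, and 1820, 1830 and 1600 CPM in WT libraries. Rpl4 and Mt1 were both lowest in Het library 2 and KO library 3. For Slc30a10 they were Dph2 (0.944), Emc1 (0.917), Myo5a (0.900), Meis3 (0.887) and Prkar2b (0.880), which rest on 296 Slc30a10 reads in all.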

How the data were processed

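RNA was extracted from prostate tissue with a Qiagen RNeasy kit and made into polyA-enriched libraries with inserts of 250 to 300 bp, per the labels' protocols. The authors deposited raw read counts per gene (whole numbers, not normalised) and FPKM per library, with the build GRCm38 or mm10, per the submitters' processing notes. The deposited FPKM equal counts per kilobase of the deposited gene length over a library total scaled by DESeq2-type size factors. The sources used here name no aligner or counting program and no strand setting. Genotypes came from the library names in the descriptions.

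All 9 libraries entered 1 edgeR 4.0.16 quasi-likelihood model (R 4.3.3, TMM, filterByExpr, robust), which tested 16836 of 54532 genes with Benjamini-Hochberg adjustment. SE is the absolute log2 fold change over the square root of F. Alternatives used DESeq2 1.42.0 and limma 3.58.1. The test was checked on simulated data in which the spread of each gene was capped, so the check does not give its power in these libraries. No pair of libraries was near-identical (lowest chi-square per degree of freedom 43.6). Likeness is Pearson r of log2 CPM with a prior count of 2. Overlaps used GENCODE vM21, which has the deposited coordinates for every member.

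Members and lists were chosen with earlier results of these data known. The text names all 10 members, up to 5 other zinc genes with the smallest p per comparison, up to 4 per further list, and the 5 genes most like Slc30a2, Slc30a10 and Mt1. Slc39a1, Mtf1 and Slc39a7 were added for their known roles or their exon overlap. A result on 1 further gene is not reported here.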

Additional observations from a re-analysis of the deposited data

How the results depend on the processing

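In Het against WT, the count of members called moved from 0 to 1 (Slc30a2, lower) in DESeq2, in limma voom with library quality weights and in the fit with a seminal vesicle score. Leaving out 1 library at a time gave 0 to 1, the 1 being without Het library 1. The count of other zinc genes called there became 1 in DESeq2 (Slc39a6), 2 with quality weights (Slc39a6 and Mt3) and 1 with the seminal vesicle score (Mt3), and ran from 0 to 1 over the single omissions (Mt3 without Het library 1). In each of these settings many more genes were called over the whole table: 196 in DESeq2, 699 with quality weights, 274 with the seminal vesicle score and 258 without Het library 1. In KO against WT and KO against Het no member or other zinc gene was called under any of the 22 alternatives, namely 3 other normalisations, 2 other filters, 3 other tools, 9 single omissions, the omission of the 3 libraries low in Sbp, 3 covariates and fits of only the genotypes compared.

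Slc30a2 stayed lower under all 22, at -1.13 to -0.69 in KO against WT and -1.64 to -1.24 in Het against WT. The KO against WT value was smallest with the skeletal muscle score. Slc30a1 stayed higher, at 0.16 to 0.61 in KO and 0.52 to 0.95 in Het, both lowest with Sbp as a covariate. For both genes all KO and Het libraries lay on the same side of WT, so leaving libraries out could hardly change the sign. The sign of Mt1 in KO against WT held in 20 of 22 and that of Mt2 in 20 of 22. The order of the members by listed level was unchanged with counts per kilobase and under each single omission. Counts per kilobase use the same deposited gene lengths as the FPKM, so the order was not checked against other lengths. With 3 libraries per genotype, and 1 WT library where those low in Sbp were left out, that lone library is assumed to vary like the others. No paired analysis was possible because the labels give no shared replicate numbers.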
